A study of Mus musculus with 9 samples.

Results

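Internal exons of mouse protein-coding genes were examined together with the introns beside them in WT, *Dnmt3a* KO and *Dnmt3b* KO embryonic stem cells (ESCs). An exon was taken when it was neither the first nor the last of the longest isoform, lay on chromosomes 1 to 4 or 10 to 19 of mm9, and held at least 3 CpGs of 5 or more reads in every genotype, with as many in the 500 bp of intron on its 2 sides together. Of 107099 internal exons in the part of the genome that all 3 tables cover, 52422 (48.9%) met this rule, from 9829 of 11298 genes. Most of those left out, 48948 exons, hold fewer than 3 CpGs in the sequence, 3998 have too few CpGs in the flanks, and 1731 have too few covered CpGs in the exon or the flanks. The level of an exon or a flank is the mean over its CpGs of methylated reads divided by all reads, in percent.

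All lines were J1 ESCs, which derive from the mouse strain 129S4/SvJae, grown on gelatin in serum with LIF. The labels give the genotypes as wild type, Dnmt3a-/- and Dnmt3b-/-, with no further allele or agent, and each KO line still carries the gene of the other enzyme. Whole genome bisulfite sequencing (WGBS) was done on 3 biological replicates a genotype, but the 3 were merged into 1 table before deposit. Every level below is therefore 1 pooled value with no replicate error, no test across replicates could be made, and calls are by size alone. Reads of an exon were summed over its CpGs, here and below, so that a read over several CpGs counts at each of them. The median sum was 125 in WT, 111 in the *Dnmt3a* KO and 120 in the *Dnmt3b* KO, and the median reads per CpG were 25.75, 22.7 and 24.7. The median counting standard error of an exon was 2.56, 4.20 and 3.10 points in that order. These errors and the intervals given below take such counts as independent and may be too small. They cover the counting of reads and not the variation between cultures.

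DNMT3A and DNMT3B are the de novo DNA methyltransferases, which set methyl groups on CpGs that carry none, while DNMT1 copies methylation at replication. In mammalian genomes the bodies of transcribed genes are generally methylated, internal exons are richer in CpGs than the introns around them, and CpG islands at gene starts are generally free of methylation. An internal exon is bounded by an acceptor site, where the intron before it ends in AG, and a donor site, where the intron after it begins with GT.

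The sequences of 5 exons of 80 to 240 bp, each the highest ranked coding exon of these lengths for 1 of 5 patterns described below, show how CpGs lie across an exon and its splice sites. Each is given 5′ to 3′ on the strand of its gene with 30 bp of intron on both sides, from mm9, and capitals mark CpGs. The positions that follow are those of the printed stretch, with its 30 bp of intron on both sides. *Cpn1* exon 2, printed from chr19:44055263-44055519 on the minus strand, had a very low level in the *Dnmt3a* KO. *Cryz* exon 4, printed from chr3:154274344-154274567 on the plus strand, had nearly the WT level in the *Dnmt3a* KO. *Aire* exon 11, printed from chr10:77497301-77497482 on the minus strand, lay far below WT in the *Dnmt3b* KO. *Mylk* exon 21, printed from chr16:34956439-34956652 on the plus strand, lay above WT in the *Dnmt3b* KO. *Sept5* exon 3, printed from chr16:18625408-18625564 on the minus strand, stood far above its introns in the *Dnmt3a* KO.
Cpn1 exon 2: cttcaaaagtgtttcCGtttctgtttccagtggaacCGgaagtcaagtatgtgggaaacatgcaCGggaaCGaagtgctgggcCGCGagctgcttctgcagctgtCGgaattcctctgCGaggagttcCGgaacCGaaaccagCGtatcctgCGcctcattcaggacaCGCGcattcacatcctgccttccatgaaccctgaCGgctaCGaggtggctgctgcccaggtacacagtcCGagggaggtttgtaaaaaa
Cryz exon 4: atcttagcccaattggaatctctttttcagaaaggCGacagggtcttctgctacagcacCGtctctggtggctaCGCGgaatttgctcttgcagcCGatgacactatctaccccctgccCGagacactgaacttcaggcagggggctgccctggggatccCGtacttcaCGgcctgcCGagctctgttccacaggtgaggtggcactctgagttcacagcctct
Aire exon 11: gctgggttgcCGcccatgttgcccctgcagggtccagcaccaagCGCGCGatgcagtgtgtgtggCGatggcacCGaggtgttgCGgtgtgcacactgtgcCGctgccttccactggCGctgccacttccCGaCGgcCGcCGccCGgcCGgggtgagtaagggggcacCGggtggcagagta
Mylk exon 21: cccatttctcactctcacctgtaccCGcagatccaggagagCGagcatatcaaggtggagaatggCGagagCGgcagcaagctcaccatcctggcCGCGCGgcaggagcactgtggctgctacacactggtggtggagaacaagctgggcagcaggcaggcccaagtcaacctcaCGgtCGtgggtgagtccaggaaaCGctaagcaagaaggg
Sept5 exon 3: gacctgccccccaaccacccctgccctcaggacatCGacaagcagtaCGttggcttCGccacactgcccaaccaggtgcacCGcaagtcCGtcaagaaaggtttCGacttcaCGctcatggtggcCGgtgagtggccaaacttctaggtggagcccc

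The exons that met the rule were short and CpG-rich beside their introns. The median exon was 150 bp long with 3.40 CpGs per 100 bp, and the median of the flanks was 1.10. The rule itself raises the exon density, because it asks for 3 CpGs in the exon and for only as many in the longer flanks. Of the 52422 exons, 51725 (98.7%) were preceded by AG and followed by GT, and 427 (0.815%) were followed by GC. Exons just outside the rule, with 2 covered CpGs (n = 15951), had median levels of 94.4% in WT, 59.5% in the *Dnmt3a* KO and 87.9% in the *Dnmt3b* KO, and those just inside it, with 3 (n = 13549), had 94.4%, 60.5% and 88.3%.

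Exons were nearly fully methylated in WT, moderately lower in the *Dnmt3b* KO and much lower in the *Dnmt3a* KO. The median exon level was 94.1% in WT, with quartiles of 89.1% and 97.1%. In *Dnmt3a* KO the median was 59.4%, with quartiles of 43.2% and 70.4%, and in the *Dnmt3b* KO it was 87.6%, with quartiles of 78.1% and 93.0%. The number of exons at 80% or more was 45968 (87.7%) in WT, 4254 (8.11%) in the *Dnmt3a* KO and 37679 (71.9%) in the *Dnmt3b* KO. Exons under 20% numbered 1826 (3.48%), 5604 (10.7%) and 2688 (5.13%). Of all exons, 51639 (98.5%) had a lower level in the *Dnmt3a* KO than in WT, 42000 (80.1%) had one in the *Dnmt3b* KO, and 50140 (95.6%) were lower in the *Dnmt3a* KO than in the *Dnmt3b* KO. Windows of 150 bp were taken over the part of the genome that all 3 tables cover, and those deep within introns, described below, were also counted apart. All windows and intron windows had shares near these. Below WT were 96.4% and 98.9% in the *Dnmt3a* KO and 74.2% and 74.0% in the *Dnmt3b* KO. Lower in the *Dnmt3a* KO than in the *Dnmt3b* KO were 93.1% and 96.8%. The medians of all windows were 92.8% in WT, 56.6% in the *Dnmt3a* KO and 86.8% in the *Dnmt3b* KO. Intron windows had 93.6%, 57.9% and 88.4% in that order. The high level in WT and the much lower one without *Dnmt3a* were thus shared by the windows and not particular to exons. The counts of exons at 80% or more and under 20% have no such background here.

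The median difference of a KO exon from the same exon in WT was -32.3 points in the *Dnmt3a* KO and -6.05 points in the *Dnmt3b* KO. In the flanks the medians were -33.6 and -6.36 points. An exon level more than 20 points below WT was found for 41512 exons (79.2%) in the *Dnmt3a* KO. The share was 73% of all 150-bp windows of the covered part of the genome that met the same minimums of CpGs, and 78.8% of windows deep within introns. In *Dnmt3b* KO, 6106 exons (11.6%) lay this far below WT, against 9.91% of all windows and 8.83% of intron windows. The intron windows lay at least 1000 bp from any exon of the isoform.

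**Figure D1:**
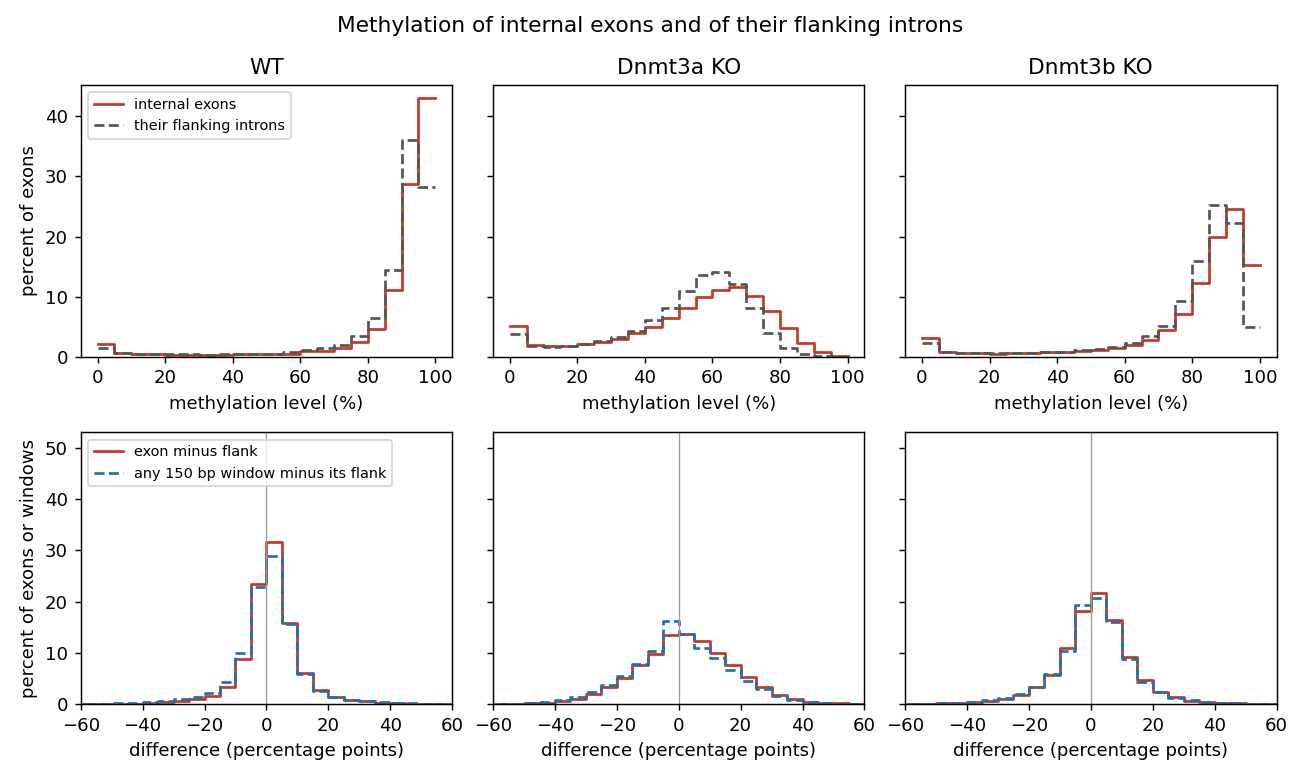
Top, percent of 52422 internal exons (red) and of their flanking introns (grey) by methylation level, in bins of 5 points. Bottom, percent of exons by the difference of exon minus flank (red), and of all 150-bp windows against their own flanks (blue), in percentage points. Exon levels crowd near their median of 94.1% in WT and spread widely around 59.4% in the *Dnmt3a* KO, while the differences centre near 0 in every genotype, are broadest in the *Dnmt3a* KO and nearly coincide with those of the windows.

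Exons stood slightly above the introns beside them in every genotype, by less than the counting error of a single exon. The median flank level was 92.4% in WT, 56.3% in the *Dnmt3a* KO and 85.6% in the *Dnmt3b* KO. The median of exon minus flank was 1.46 points in WT, 2.08 in the *Dnmt3a* KO and 1.62 in the *Dnmt3b* KO, where the median counting standard error of 1 such difference was 3.59, 5.605 and 4.27 points. Windows of 150 bp, set against the 500 bp on each side of them in the same way, had medians of 1.11, 0.244 and 1.24 points, and intron windows had 1.33, 0.846 and 1.69. The plot of levels and differences shows that the 3 distributions of the difference overlap around 0. The median for exons was above that for all windows by 0.348 points in WT, 1.84 in the *Dnmt3a* KO and 0.380 in the *Dnmt3b* KO. Among the 3590 exons with at least 10 CpGs in exon and in flanks the direction was turned, with medians of -0.342, -0.947 and -1.34 points. No medians of windows were computed at this minimum.

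In WT, 6606 exons (12.6%) stood more than 10 points above their flanks, against 12.2% of all windows, and 4013 (7.66%) stood more than 10 points below, against 10.6%. In *Dnmt3a* KO, 15828 exons (30.2%) stood above, against 26.5% of windows, and 10657 (20.3%) below, against 22.1%. In *Dnmt3b* KO, 10097 exons (19.3%) stood above, against 18.7% of windows, and 7169 (13.7%) below, against 14.8%. The shares of exons above their flanks were close to all windows in WT and *Dnmt3b* KO, and the largest gap from all windows, in the *Dnmt3a* KO, was 3.73 percentage points. Of intron windows, 11.1% stood above in WT, 28.2% in the *Dnmt3a* KO and 18.4% in the *Dnmt3b* KO. Those below were 10.4%, 24.2% and 14.9% in that order. With at least 10 CpGs in exon and in flanks (n = 3590), 15.5% of exons stood above in the *Dnmt3a* KO and 10.1% in the *Dnmt3b* KO, and 16.4% stood below in WT and 22.95% in the *Dnmt3b* KO. Windows were not counted at this minimum, so these shares have no background. A total of 2328 exons (4.44%) stood above in all 3 genotypes, against 3.88% of windows, and 1301 (2.48%) stood below in all 3, against 3.56%. Another 563 (1.07%) were above in WT and below in the *Dnmt3a* KO, against 1.18% of windows.

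The difference of exon minus flank was itself compared between genotypes. In *Dnmt3a* KO it was more than 10 points higher than in WT for 14121 exons (26.9%), against 25.5% of all windows, and more than 10 points lower for 12295 (23.5%), against 24.4%. In *Dnmt3b* KO it was higher for 7646 exons (14.6%), against 15.4% of windows, and lower for 8293 (15.8%), against 14.8%. The median shift was 0.996 points in the *Dnmt3a* KO and 0.112 points in the *Dnmt3b* KO. Each of these shares lay within 1.49 percentage points of that of the windows. With at least 10 CpGs in exon and in flanks the difference was higher in the *Dnmt3b* KO for 7.44% of exons. The share that was lower in the *Dnmt3b* KO ran up to 21.4% under the alternatives described at the end. Windows were not counted for either of these shares, so they have no background.

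Among the 42726 exons that were at 80% or more in WT in both exon and flanks, the median difference from the flanks was 1.48 points in WT, 3.00 in the *Dnmt3a* KO and 1.86 in the *Dnmt3b* KO. Windows chosen in the same way (n = 1077585) had 1.60, 1.95 and 2.07 points. In this set the level of an exon and that of its flanks had a Pearson correlation across exons of 0.147 in WT, 0.490 in the *Dnmt3a* KO and 0.396 in the *Dnmt3b* KO. The exon and its flanks share libraries and genes, exons are not independent replicates, and WT levels there are confined to the narrow range above 80%. Over the 40687 of these exons that lay in the 6800 genes with more than 1, 3.26% of the variance of the exon level lay between genes in WT, 9.47% in the *Dnmt3a* KO and 10.5% in the *Dnmt3b* KO. The SD of exons within a gene, counting error included, was 4.30 points in WT, 15.7 in the *Dnmt3a* KO and 8.96 in the *Dnmt3b* KO, so that exons of 1 gene were widely scattered in the *Dnmt3a* KO.

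In bins of 25 bp the level dipped in the introns within about 100 bp of both splice sites and was higher in the exon just inside them. For exons more than 2000 bp from the transcription start site (TSS), CpGs of the intron 500 to 475 bp before the acceptor site had a mean of 88.8% in WT, 54.0% in the *Dnmt3a* KO and 81.9% in the *Dnmt3b* KO. In the last 25 bp of that intron the means were 85.8%, 48.8% and 76.9%. From 25 to 50 bp inside the exon they were 89.5%, 55.3% and 81.5%. After the donor site they were lowest from 50 to 75 bp in WT and *Dnmt3b* KO, at 85.8% and 77.3%, with 50.3% in the *Dnmt3a* KO. In the intron 475 to 500 bp beyond the donor site they were 89.8%, 55.7% and 82.9%. The exon therefore stood above the intron next to it by 3.66 points in WT, 6.495 in the *Dnmt3a* KO and 4.63 in the *Dnmt3b* KO at the acceptor site, while it differed from the intron 475 to 500 bp before it by 0.737, 1.32 and -0.331 points. At the donor site the exon 25 to 50 bp inside was above the intron 50 to 75 bp outside by 3.60, 5.09 and 4.27 points, and it was below the intron 475 to 500 bp beyond in every genotype, with differences of -0.327, -0.359 and -1.37 points. A bin stops where the intron ends, so introns shorter than 500 bp add nothing to the farthest bins. Near and far bins thus do not hold the same set of exons, and the part of this in the dip was not tested. The bins reach 100 bp into the exon from each site, and means over whole exons gave another order. Without CpGs read on 1 strand only, all exon CpGs had means of 87.6%, 53.3% and 79.1%, CpGs of the intron within 100 bp 88.1%, 52.0% and 79.9%, and those 100 to 500 bp away 89.9%, 54.7% and 82.7%. Over whole exons the mean was thus below that of the near intron in WT and *Dnmt3b* KO and above it in the *Dnmt3a* KO, and below that of the intron farther away in every genotype. Among CpGs above 20% in WT, with those read on 1 strand kept, exons had 91.3%, 55.6% and 82.4%. The near intron had 91.1%, 53.7% and 82.5% and the intron farther away 91.7%, 55.8% and 84.3%. There the WT exon mean was above that of the near intron. CpG density changed at the same places as the level in the bins, from 1.06 CpGs per 100 bp in the last 25 bp of the intron to 3.69 from 25 to 50 bp into the exon. The size of this step depends on the rule, which keeps only exons of at least 3 CpGs.

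**Figure D2:**
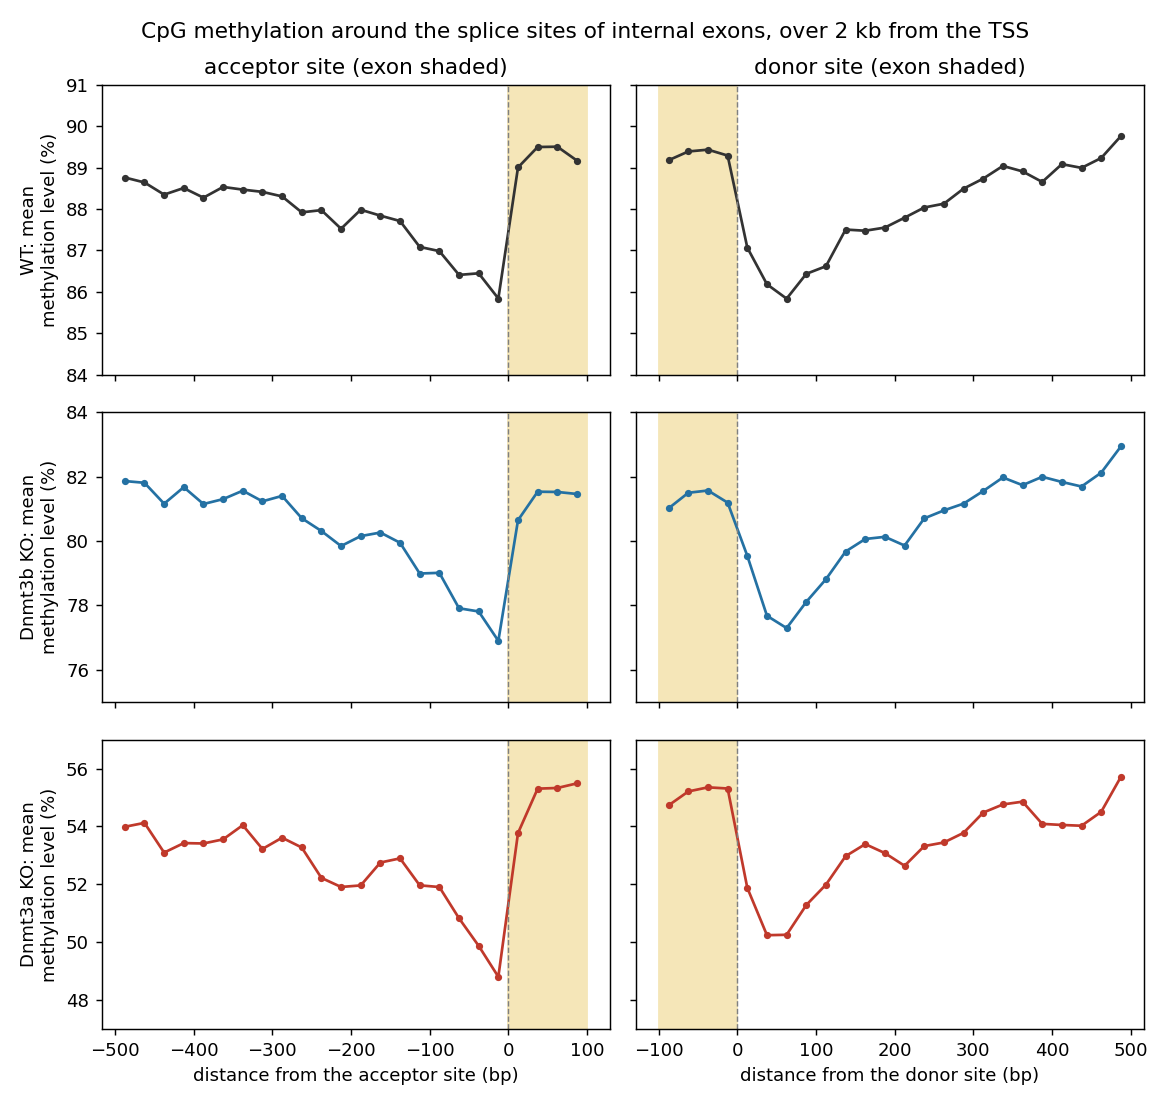
Mean methylation level of CpGs in bins of 25 bp from 500 bp of intron before the acceptor site to 100 bp of exon, and from 100 bp of exon to 500 bp of intron after the donor site, for exons more than 2000 bp from the TSS. Each row is 1 genotype on its own scale, which does not start at 0, and the shaded part is the exon. In all 3 genotypes the curve is lowest in the intron close to the splice sites and steps up in the exon. Short introns are missing from the bins far from the sites.

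The cells came from strain 129S4/SvJae, while mm9 was built from C57BL/6J, and CpGs read on the same single strand in every genotype were counted as a measure of positions that may not be CpGs in these cells. They made up 0.670% of exon CpGs, 1.72% of intron CpGs within 100 bp of the exon and 2.63% of those 100 to 500 bp away. Without them the median of exon minus flank was 1.09 points in WT, 1.67 in the *Dnmt3a* KO and 1.18 in the *Dnmt3b* KO, against 0.963, 0.227 and 1.11 points for windows. The share of exons more than 10 points above their flanks in WT was then 8.67%, against 9.60% of windows, and thus lay below the windows in place of above them. The shares turned in the *Dnmt3b* KO as well, with 16.2% of exons above against 16.9% of windows and 13.6% below against 13.5%. In *Dnmt3a* KO they did not turn, with 29.02% above against 26.1% and 20.8% below against 21.8%. In WT the last 25 bp of intron before the acceptor site were then at 86.6% and the exon 25 to 50 bp inside at 89.8%. The exon was above these 25 bp by 3.23 points in WT, 6.25 in the *Dnmt3a* KO and 4.22 in the *Dnmt3b* KO, while its difference from the intron 475 to 500 bp before the acceptor site turned to -0.103 points in WT and was 0.764 and -1.09 points in the KO lines. At the donor site that difference was negative in every genotype already with all CpGs.

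With each exon counted once, the mean exon level was 88.1% in WT, 54.3% in the *Dnmt3a* KO and 80.2% in the *Dnmt3b* KO, and the mean flank level was 86.5%, 52.0% and 78.8%. With each CpG of the same exons and flanks counted once, the means were 83.1%, 49.99% and 74.5% for exons and 83.96%, 50.1% and 76.5% for flanks, so that the exon mean was the lower. The medians over CpGs were not turned in this way. For CpGs more than 2000 bp from the TSS they were 57.7% in exons and 57.1% in flanks in the *Dnmt3a* KO, 88.9% in both in the *Dnmt3b* KO, and 96.0% and 95.5% in WT. Among these CpGs more than 2000 bp from the TSS, at the same local density, counted as the CpGs within 100 bp on either side including the CpG itself, exon CpGs were higher than flank CpGs in every class and genotype. With no other CpG in that stretch the exon excess was 0.803 points in WT, 1.17 in the *Dnmt3a* KO and 0.190 in the *Dnmt3b* KO. With 3 to 4 CpGs it was 1.97, 4.01 and 2.09 points, and with 7 to 9 it was 4.18, 5.67 and 4.29. It reached 16.7 points in WT and 9.92 in the *Dnmt3b* KO with 15 to 19 CpGs, while the largest in the *Dnmt3a* KO, 7.26 points, was with 10 to 14. Exons and flanks of the same density may still differ in distance from the TSS, whose part in this was not tested.

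The base that follows the CpG went with different deficits in the KO lines, in exons and introns alike. These values, and those by codon position and strand, are for CpGs more than 2000 bp from the TSS. In exons, CpGs followed by C were at 86.8% in WT and 50.0% in the *Dnmt3a* KO, a difference of -36.8 points, and those followed by T differed by -36.5 points. CpGs followed by A differed by -32.5 points and those followed by G by -31.6. In *Dnmt3b* KO the order was another, with -10.3 points before A, -8.65 before G, -7.86 before T and -5.89 before C. Flank CpGs gave -37.4, -36.9, -33.1 and -32.7 points before C, T, A and G in the *Dnmt3a* KO, and -4.95, -7.00, -9.22 and -7.90 in the *Dnmt3b* KO. Each value rests on 88896 or more strands of CpGs with reads, counted on each strand with its own next base.

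The place of a CpG in the reading frame went with smaller differences. The C was the first base of a codon, which makes an arginine codon, in 36.0% of the exon CpGs more than 2000 bp from the TSS with a known frame, the second in 23.9% and the third in 40.2%. The levels in that order were 89.2%, 87.6% and 88.0% in WT, 55.1%, 53.2% and 53.6% in the *Dnmt3a* KO, and 81.0%, 79.7% and 79.1% in the *Dnmt3b* KO. For exon CpGs at this distance, with at least 5 reads on the strand in every genotype, reads of the strand of the gene and of the opposite strand gave 88.9% and 88.4% in WT, 55.0% and 54.3% in the *Dnmt3a* KO, and 80.7% and 80.1% in the *Dnmt3b* KO.

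Exon levels differed widely with distance from the TSS. The 706 exons within 500 bp of the TSS had medians of 3.81% in WT, 0.575% in the *Dnmt3a* KO and 1.18% in the *Dnmt3b* KO. From 500 to 1000 bp (n = 1150) the medians were 34.0%, 5.99% and 14.3%, and from 1000 to 2000 bp (n = 1820) they were 89.4%, 39.4% and 75.3%. Beyond 100 kb (n = 8307) they were 94.9%, 63.4% and 89.8%. The share of exons more than 20 points below WT in the *Dnmt3b* KO was 24.4% from 1000 to 2000 bp and 7.99% beyond 100 kb. In *Dnmt3a* KO these shares were 78.8% and 77.3%. Far from the TSS the levels were thus higher in all 3 genotypes.

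**Figure D3:**
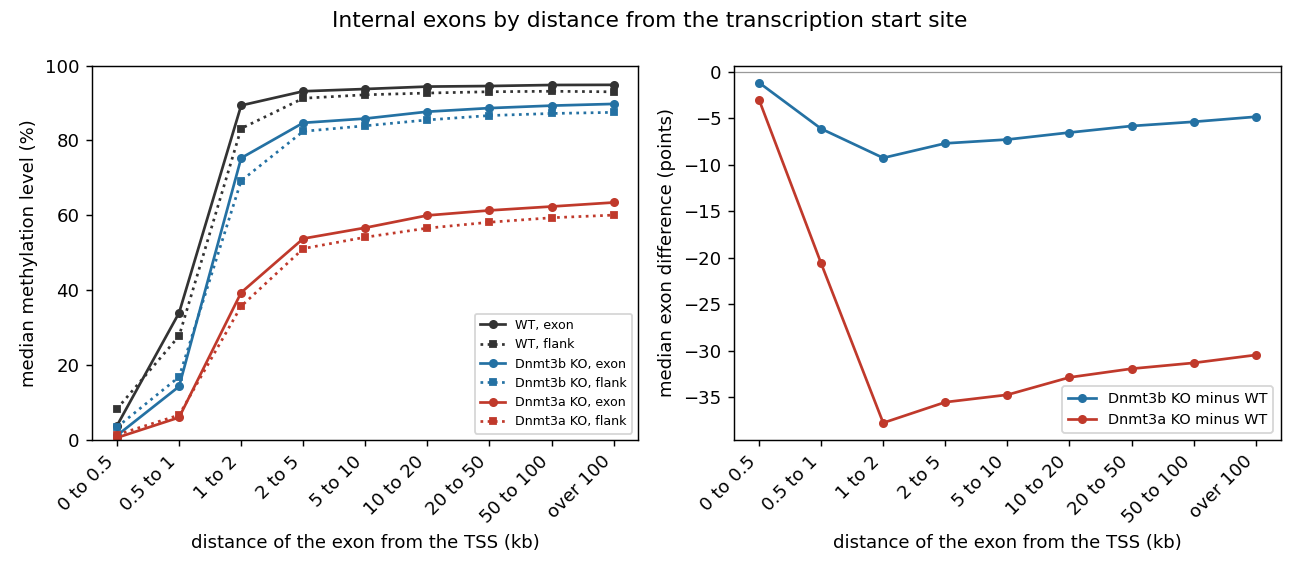
Left, median level of exons (solid) and flanks (dotted) by distance of the exon from the TSS, in classes up to more than 100 kb. Right, median difference of the exon level from WT in each KO. Exon medians climb from 3.81%, 0.575% and 1.18% in the class nearest the TSS to 94.9%, 63.4% and 89.8% in the farthest, and the differences from WT are largest from 1 to 2 kb, at -37.8 points in the *Dnmt3a* KO and -9.24 in the *Dnmt3b* KO.

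The second exon of the isoform (n = 6027) had medians of 90.6%, 45.6% and 81.6%, and exons from the 12th on (n = 17700) had 94.7%, 62.6% and 88.9%. Exons with over 7 to 10 CpGs per 100 bp (n = 1814) had 86.1% in WT, 29.0% in the *Dnmt3a* KO and 66.2% in the *Dnmt3b* KO, and those with over 10 (n = 398) had 2.03%, 0.452% and 0.882%. Exons over 1000 bp long (n = 668) lay below their flanks by medians of -0.483, -0.333 and -1.59 points, whereas exons of 60 to 100 bp (n = 7009) had 2.07, 3.41 and 2.46 points. Internal exons wholly in the 5′ untranslated region (n = 607) had 89.4%, 44.9% and 79.6%, against 94.2%, 59.9% and 87.9% for coding exons (n = 49002). Gaps between such class medians are not the differences of single exons from WT. The medians of those differences in the *Dnmt3a* KO and the *Dnmt3b* KO were -32.7 and -5.97 points for second exons. With over 7 to 10 CpGs per 100 bp they were -26.3 and -5.40, for 5′ untranslated exons -30.5 and -5.34, and for all members -32.3 and -6.05. Exons whose length is a multiple of 3 had medians of 94.1%, 59.5% and 87.8%, and the others had 94.1%, 59.2% and 87.6%. Among coding exons more than 2000 bp from the TSS, those that another annotated isoform skips (n = 2647) had 94.4%, 59.9% and 88.3%, and those not skipped (n = 31610) had 94.5%, 60.9% and 88.4%.

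First exons were nearly unmethylated, and last exons were close to internal ones. The 9106 first exons with enough CpGs had medians of 0.699% in WT, 0.238% in the *Dnmt3a* KO and 0.381% in the *Dnmt3b* KO, with 8.82 CpGs per 100 bp. The 7162 last exons had 92.1%, 55.0% and 84.6%, and their medians against the intron before them were -0.346, 0.291 and -0.776 points. On chromosomes 5 to 9, which the WT table does not cover, 24514 internal exons had medians of 58.4% in the *Dnmt3a* KO and 87.3% in the *Dnmt3b* KO, with 2.01 and 1.74 points above their flanks.

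Exons of large structural genes make up the longest series within 1 gene. *Ttn*, on chromosome 2, encodes titin, the giant spring protein of muscle, and 141 of its 345 internal exons met the rule. Their mean level was 93.1% in WT, 62.9% in the *Dnmt3a* KO and 87.8% in the *Dnmt3b* KO. Single *Ttn* exons ranged from 20.5% to 100% in WT, from 4.44% to 85.3% in the *Dnmt3a* KO and from 10.8% to 98.9% in the *Dnmt3b* KO. Of the 141, 106 (75.2%) lay more than 20 points below WT in the *Dnmt3a* KO and 6 (4.26%) did in the *Dnmt3b* KO, against 79.2% and 11.6% of all internal exons that met the rule. Exon 223, with 5 CpGs, was at 64.8% in WT, 4.44% in the *Dnmt3a* KO and 10.8% in the *Dnmt3b* KO, whereas exons 8 and 109 were low already in WT, at 20.5% and 30.8%. These 3 exons were picked after their values were seen. The plot of *Ttn* exons along the isoform shows *Dnmt3a* KO as the lowest series nearly throughout, with scatter between neighbouring exons.

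**Figure D4:**
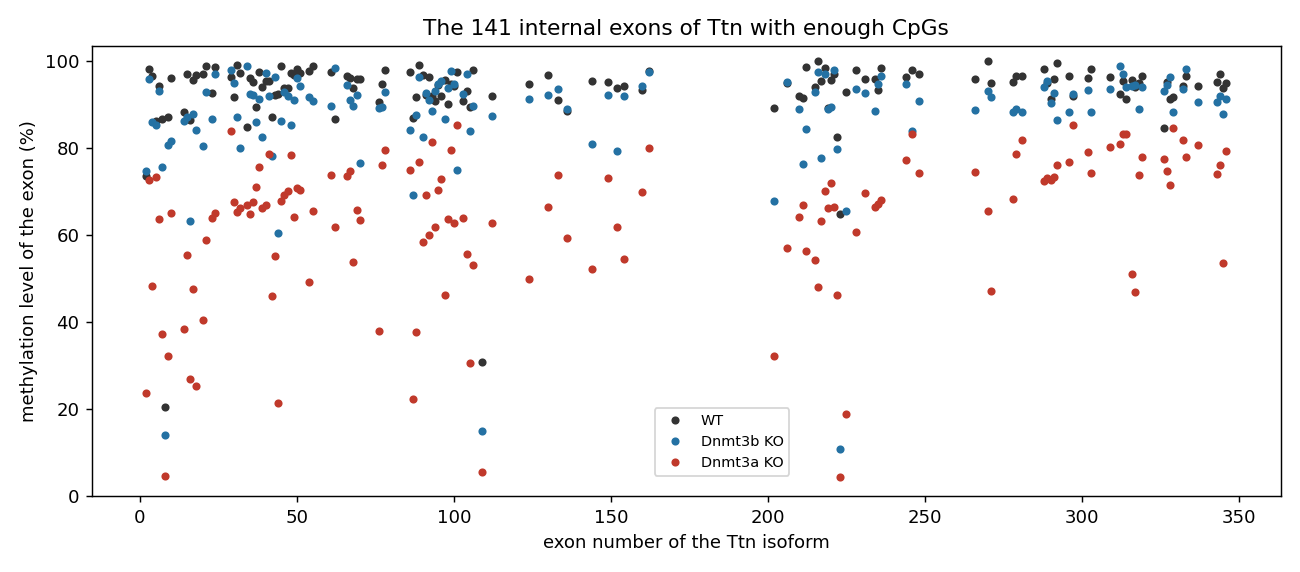
Methylation level of the 141 measured *Ttn* exons by exon number from the 5′ end, in WT, *Dnmt3a* KO and *Dnmt3b* KO. WT and *Dnmt3b* KO exons lie mostly near their means of 93.1% and 87.8%, and *Dnmt3a* KO exons scatter from 4.44% to 85.3%.

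The next longest series were in genes for cytoskeletal linkers, motors, matrix and receptor proteins. *Syne1*, which encodes a nesprin that ties the nucleus to the cytoskeleton, had 83 exons with means of 92.0%, 55.5% and 85.4% in WT, *Dnmt3a* KO and *Dnmt3b* KO. *Hspg2*, the gene of the basement membrane proteoglycan perlecan, had 79 with 92.2%, 61.8% and 84.1%. *Lrp1*, a large endocytic receptor, had 75 with 89.7%, 50.1% and 79.97%. *Ubr4*, a ubiquitin ligase, had 71 with 94.5%, 68.5% and 86.5%. *Dnahc2*, an axonemal dynein heavy chain, had 70 with 91.7%, 50.6% and 84.8%. *Dnahc8*, *Syne2*, *Dst* and *Dnahc17*, with 68 to 79 exons, had means of 51.8% to 61.3% in the *Dnmt3a* KO and of 81.4% to 86.3% in the *Dnmt3b* KO. Across these 10 genes the mean difference from WT ran from -41.1 to -26.0 points in the *Dnmt3a* KO and from -9.77 to -5.35 in the *Dnmt3b* KO. The 2 ranges did not overlap. A lower level in the *Dnmt3a* KO than in the *Dnmt3b* KO was general, with 95.6% of all exons, 93.1% of all windows and 96.8% of intron windows.

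Single exons were named by rank among the 7436 exons with at least 8 CpGs in exon and in flanks, and, for differences from WT, among the 5821 of these at 70% or more in WT. They are the extremes of these rankings and are given as a description. For 1 exon of each ranking by difference from WT, the 95% Wilson interval of the share of methylated reads is given for the KO in question.

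The exons with the largest difference from WT in the *Dnmt3a* KO were at 2.50% to 7.20% there and at 60.6% to 69.8% in the *Dnmt3b* KO. *Cpn1* exon 2, in the gene of the catalytic subunit of carboxypeptidase N, was at 94.2% in WT, 4.87% in the *Dnmt3a* KO (interval 2.66% to 8.70%) and 69.5% in the *Dnmt3b* KO. Its flanks were at 95.3%, 38.6% and 87.1%, so that the exon was lower than its introns in both KO lines. *Pla1a* exon 3, in a phospholipase gene, was at 96.0%, 7.20% and 60.6%, and its flanks were at 92.3%, 11.6% and 71.5%. *Itgb5* exon 5, of integrin beta 5, was at 93.7%, 5.74% and 63.1%, with flanks at 25.1% in the *Dnmt3a* KO and 79.2% in the *Dnmt3b* KO. *Rps6kc1* exon 10 was at 89.5%, 2.50% and 67.3%, and exon 3 of *6720456H20Rik*, in the 5′ untranslated region, was at 92.2%, 4.99% and 69.8%.

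At the other end, *Cryz* exon 4, of the quinone reductase zeta-crystallin, was at 88.5% in WT, 86.9% in the *Dnmt3a* KO (interval 79.6% to 90.5%) and 96.9% in the *Dnmt3b* KO, while its flanks were at 95.5%, 70.02% and 91.1%. *Csf1r* exon 2, of the receptor for colony stimulating factor 1, was at 95.6%, 97.9% and 98.4%, with flanks at 90.9%, 62.7% and 91.3%. *Map3k4* exon 17 was at 99.2%, 97.0% and 96.2%, *Atrnl1* exon 17 at 95.4%, 93.0% and 92.8%, and *Frmpd1* exon 14 at 91.3%, 88.9% and 94.7%. These 5 exons were ranked by a small difference from WT in the *Dnmt3a* KO, which goes with a high exon level there. All 5 stood above their flanks in the *Dnmt3a* KO, where the flanks were at 62.7% to 76.4%.

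For *Dnmt3b* KO, the exon farthest below WT was *Aire* exon 11, in the gene of the autoimmune regulator that drives antigen display in the thymus. It was at 79.1% in WT, 35.2% in the *Dnmt3a* KO and 17.3% in the *Dnmt3b* KO (interval 11.7% to 23.2%), and its flanks were at 76.6%, 24.8% and 44.6%. *Gga3* exon 11, of a clathrin adaptor of the trans-Golgi, was at 86.3%, 3.20% and 25.4%. *Afap1l1* exon 16 was at 79.4%, 15.4% and 19.7%, *Ddx21* exon 2, of a nucleolar RNA helicase, at 82.4%, 27.0% and 24.2%, and *Acly* exon 18, of ATP citrate lyase, at 71.9%, 7.95% and 15.0%. In *Aire* and *Ddx21* the exon was lower in the *Dnmt3b* KO than in the *Dnmt3a* KO, and in the other 3 it was higher.

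A higher level in the *Dnmt3b* KO than in WT was found for 9910 of all exons (18.9%), against 23.4% of all windows and 25.04% of intron windows, and the exons that follow ranked among the farthest above WT. *Tmprss9* exon 12 was at 75.03% in WT, 62.3% in the *Dnmt3a* KO and 92.6% in the *Dnmt3b* KO, *Smarca2* exon 32, of the BRM ATPase of SWI/SNF complexes, at 80.3%, 51.0% and 95.7%, and *Ptprb* exon 8, of the vascular endothelial protein tyrosine phosphatase, at 79.6%, 73.8% and 94.5%. *Mylk* exon 21, of myosin light chain kinase, was at 84.5%, 35.8% and 97.3% (interval 92.4% to 98.8%), with flanks at 90.3%, 25.2% and 81.3%. The place of these 4 exons above WT in the *Dnmt3b* KO follows from the ranking. All 4 were below WT in the *Dnmt3a* KO, which held for 98.5% of all exons.

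The exons farthest above their flanks in WT were all second exons, and 3 of the 5 began 607 to 1561 bp from the TSS. *Bcl2l11* exon 2, of the pro-apoptotic protein BIM, was at 84.2% in WT, 30.8% in the *Dnmt3a* KO and 62.2% in the *Dnmt3b* KO, and its flanks at 11.4%, 6.22% and 8.90%. *Zbtb41* exon 2 was at 77.3%, 16.5% and 38.5%, with flanks at 4.61%, 1.15% and 3.21%. *Per1* exon 2, of a circadian clock protein, was at 87.6%, 38.8% and 57.2%, with flanks at 22.1%, 4.99% and 11.3%. *Apba3* exon 2 was at 88.2%, 30.8% and 41.2% and its flanks at 24.9%, 3.03% and 13.1%. *Oxsm* exon 2, of a mitochondrial fatty acid synthesis enzyme, was at 88.4%, 70.3% and 92.0%, with flanks at 26.1%, 10.1% and 21.5%.

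The exons farthest below their flanks in WT lay between flanks that were at 68.7% to 95.3% there. *Ptprb* exon 6 was at 18.5% in WT, 1.34% in the *Dnmt3a* KO and 8.72% in the *Dnmt3b* KO, and its flanks at 90.7%, 27.0% and 78.3%. *Has1* exon 2, of hyaluronan synthase 1, was at 25.5%, 1.13% and 18.3%, with flanks at 95.3%, 43.5% and 77.3%. *Skor2* exon 2, of a transcriptional corepressor, was at 11.1%, 5.56% and 6.81%, with flanks at 82.7%, 50.1% and 73.6%. *Med20* exon 3 was at 8.10%, 0.582% and 4.96%, and *Lrriq4* exon 4 at 2.56%, 0.444% and 0.406%.

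The exons farthest above their flanks in the *Dnmt3a* KO were at 70.3% to 88.4% there, between introns at 10.1% to 37.0%. *Sept5* exon 3, of a septin of nerve terminals, was at 94.9% in WT, 80.3% in the *Dnmt3a* KO and 96.2% in the *Dnmt3b* KO, and its flanks were at 76.7%, 16.4% and 56.6%. *Actr1a* exon 6, of the dynactin filament protein ARP1, was at 96.7%, 77.9% and 87.6%, with flanks at 79.1%, 16.9% and 66.9%. *Fbn1* exon 64, of fibrillin 1, was at 93.2%, 74.8% and 84.5%, with flanks at 69.5%, 22.3% and 72.5%. *Prdm11* exon 6 was at 95.5%, 88.4% and 95.1%, and its flanks at 96.5%, 37.0% and 66.8%. *Oxsm* exon 2, given above, was among these 5 as well.

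Among 6 genes for enzymes and cofactors of DNA methylation, the mean difference of exons from WT in the *Dnmt3b* KO ran from -19.02 points in *Dnmt3l* to -5.53 in *Dnmt3b*, and the others had -17.98 to -11.01. The mean over all members was -7.94 points. Medians over exons were -5.86 points for *Dnmt3a*, -4.47 for *Dnmt3b* and -9.29 for *Uhrf1*, beside -6.05 for all members. *Dnmt3a* had 13 exons that met the rule, with means of 92.1% in WT, 52.3% in the *Dnmt3a* KO and 79.6% in the *Dnmt3b* KO, and *Dnmt3b* had 12 with 87.5%, 63.0% and 81.9%. *Dnmt3l*, a cofactor of both enzymes without activity of its own, had 6 exons with 79.5%, 35.3% and 60.5%. *Uhrf1*, which recruits DNMT1, had 10 with 88.2%, 53.3% and 76.1%. *Tet1*, an oxidase of 5-methylcytosine, had 7 with 93.8%, 44.97% and 75.8%, and its exon 2, with 52 CpGs, was at 92.4%, 26.2% and 40.1%. *Tet2* had 3 with 90.8%, 52.8% and 79.8%. Reads over the targeted part of each gene were counted as a check of the labels. *Dnmt3a* exons 18 and 19 had 41 and 275 reads over CpGs in WT and 0 and 4 in the *Dnmt3a* KO, and *Dnmt3b* exons 19, 20 and 21 had 133, 139 and 114 in WT and 0 in the *Dnmt3b* KO. None of these 5 exons met the rule.

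Exons of 12 lists of genes were counted by the share more than 20 points below WT, to be read beside 79.2% of all members in the *Dnmt3a* KO and 11.6% in the *Dnmt3b* KO. The highest shares in the *Dnmt3b* KO were those of genes of DNA methylation and demethylation, with 26 of 88 exons (29.5%), and of pluripotency factors and their partners, with 28 of 100 (28.0%). Their medians of difference from WT were -10.7 and -10.5 points, against -6.05 for all members. Translation factors, ribosomal proteins and tRNA synthetases had 102 of 536 (19.03%), splicing and RNA binding proteins 38 of 221 (17.2%), chromatin remodellers and histone methyltransferases 61 of 406 (15.0%), and proteasome subunits 14 of 101 (13.9%). Neuronal channels and synapse proteins had 73 of 716 (10.2%), axonemal dynein heavy chains 35 of 438 (7.99%), ABC transporters 37 of 470 (7.87%), muscle contraction proteins 62 of 794 (7.81%), collagens 23 of 323 (7.12%) and laminins 14 of 265 (5.28%). Restricted to exons more than 2000 bp from the TSS, the share was 11.03% of all members, 28.9% for DNA methylation genes and 29.03% for pluripotency genes, while proteasome subunits, with 8 of 80, lay below that of all members in place of above it. No expression was measured here, and members of a list share genes and loci.

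In *Dnmt3a* KO the lists lay close together, from 228 of 323 collagen exons (70.6%) and 376 of 536 translation exons (70.1%) to 73 of 88 exons of DNA methylation genes (83.0%). The median difference from WT ran from -27.9 points for collagens to -34.8 for proteasome subunits. For exons more than 2000 bp from the TSS the medians in the *Dnmt3b* KO were -10.9 points for pluripotency genes (n = 93), -10.3 for DNA methylation genes (n = 83), -8.38 for translation (n = 418) and -4.54 for collagens (n = 315), against -6.02 for all such exons. Proteasome subunits (n = 80) had -8.78 and splicing proteins (n = 194) -8.59, so the proteasome median stayed farther below WT than that of all such exons.

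**Figure D5:**
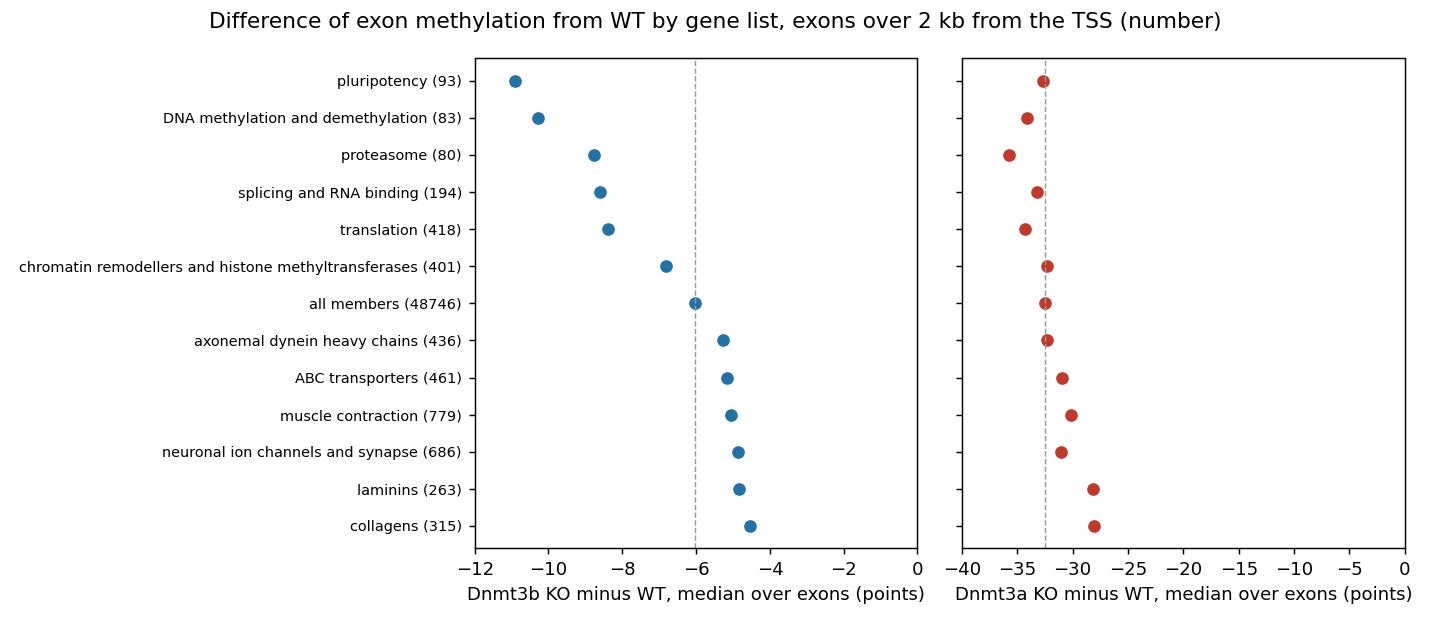
Median difference of the exon level from WT, in percentage points, for 12 lists of genes and for all exons, each restricted to exons more than 2 kb from the TSS, with the number of exons in brackets and a dashed line at the median of all of them (-6.02 left, -32.5 right). *Dnmt3b* KO medians (left) run from -10.9 for pluripotency genes to -4.54 for collagens, and *Dnmt3a* KO medians (right) from -35.7 for proteasome subunits to -28.0 for collagens.

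Of the 3 genes with most exons in each list, those that follow in full were chosen after their values were seen. *Jarid2*, a subunit of the Polycomb repressive complex PRC2, had 10 exons with a median of 94.8% in WT, 44.0% in the *Dnmt3a* KO and 72.9% in the *Dnmt3b* KO. Its median difference from WT in the *Dnmt3b* KO was -23.7 points, and those of *Lifr* and *Stat3*, in the same list, were -5.77 and -9.76. *Psmd3*, a proteasome lid subunit, had 8 with 95.3%, 50.0% and 80.5%, and a median difference there of -15.5 points, beside -4.93 for *Psmd2* and -5.57 for *Psmc3*. *Chd7*, a chromatin remodeller, had 25 with 94.6%, 74.8% and 93.1%, so that its median exon was less far below WT in both KO lines than the median of all members. *Lama1*, a laminin chain of basement membranes, had 46 with 96.7%, 76.0% and 91.3%. *Col2a1*, the collagen of cartilage, had 21 with 95.5%, 67.03% and 92.4%, and its median exon stood 17.5 points above its flanks in the *Dnmt3a* KO and 0.81 points in WT. In *Col5a1* and *Col11a2* the median exon stood 5.08 and 6.87 points above its flanks in the *Dnmt3a* KO.

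Of the 2086 genes with 8 or more exons that met the rule, 2059 had a mean exon level more than 20 points below WT in the *Dnmt3a* KO and 31 had one in the *Dnmt3b* KO. Windows were not averaged by gene, so these counts have no background and are not read as a trait of these genes. Of single exons 79.2% and 11.6% lay this far below WT in that order, and of all single windows 73.0% and 9.91%. The genes that follow were chosen after their values were seen. *Usp21*, a deubiquitinase, had 9 exons with means of 89.1% in WT, 50.8% in the *Dnmt3a* KO and 51.0% in the *Dnmt3b* KO, and 7 of the 9 lay more than 20 points below WT in the *Dnmt3b* KO. *Csnk1g2*, a casein kinase, had 8 with 85.4%, 34.1% and 48.1%. *Dvl2*, a Dishevelled protein of Wnt signalling, had 9 with 90.1%, 44.0% and 54.3%, all of them more than 20 points below WT in the *Dnmt3b* KO. *Mllt6*, *Cxxc1*, which binds unmethylated CpGs, *Ubqln4* and *Phf17* had means of 41.8% to 57.7% in the *Dnmt3b* KO. *Slc38a2*, an amino acid transporter, had 10 exons with 73.1%, 41.7% and 38.3%, and was lower in the *Dnmt3b* KO than in the *Dnmt3a* KO.

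Other genes had a mean near or above WT in the *Dnmt3b* KO. *Lcp1*, of the actin bundling protein L-plastin, had 9 exons with 91.3%, 75.4% and 93.2%. *Igf2r*, an imprinted gene of the receptor that clears insulin-like growth factor 2, had 24 with 93.2%, 68.9% and 94.1%. *Ppp3ca*, of the calcineurin catalytic subunit, had 9 with 95.8%, 79.7% and 92.9%. In *Dnmt3a* KO the exons of *Loxl4*, a lysyl oxidase (12 exons), had a mean of 67.9% against 47.6% in their flanks. Of all exons, 55.7% stood above their flanks in the *Dnmt3a* KO by any amount, against 50.7% of all windows and 52.2% of intron windows. All 11 exons of *Rbl1*, of the pocket protein p107, stood above their flanks in the *Dnmt3a* KO, with means of 75.5% and 55.4%, whereas in WT the means were 95.03% and 91.7%. At the other end of that ranking, none of the 8 exons of *Cyth1* stood above its flanks in the *Dnmt3a* KO, where the means were 47.8% in exons and 64.6% in flanks. The exons of *Tap2* (10 exons) had a mean of 41.8% there against 57.02% in their flanks, and those of *Dpyd* (8 exons) 49.7% against 62.0%.

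Exons lower in the *Dnmt3b* KO than in the *Dnmt3a* KO by more than 10 points were rare. They numbered 243 (0.464%), against 0.615% of all windows and 0.508% of intron windows, and came from 229 genes, no gene having more than 2. Their median levels were 92.2% in WT, 75.2% in the *Dnmt3a* KO and 58.5% in the *Dnmt3b* KO, over a median of 4 CpGs and of 74 and 78 reads in the KO lines. Of these, 35 held 6 or more CpGs, and the exons that follow were chosen after their values were seen. *Usp21* exon 4 was at 92.5%, 55.7% and 25.9%, on 135 reads in each of WT and *Dnmt3a* KO and 116 in the *Dnmt3b* KO. *Nr2e1* exon 2, of the nuclear receptor TLX, was at 25.5%, 37.5% and 4.02%, and *Hspg2* exon 23 was at 54.5%, 40.3% and 14.9%. *Chaf1a* exon 12, of a histone chaperone at replication forks, was at 93.0%, 78.4% and 58.8% while its flanks were at 94.5%, 54.7% and 91.1%.

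Very deep CpGs fell in few exons. A mean of more than 100 reads per CpG in any genotype was found for 30 exons, 12 of them in *Sfi1*. The exon of *Gm10800*, with 9 CpGs, held 85.3% of all exon reads in WT, 86.1% in the *Dnmt3a* KO and 82.3% in the *Dnmt3b* KO, and was at 93.4%, 80.6% and 92.4%. Each exon counts once in the medians and shares of exons, and without the 30 exons the share of methylated reads over all exons was 85.7%, 51.96% and 76.6%.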

How the data were processed

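WGBS libraries of J1 ESCs, 3 for each of 3 genotypes, had been aligned to mm9 by the authors with BSMAP, trimmed for bias with BSeQC and called with mCall of MOABS. The counts of all reads and of methylated reads per CpG, in total and per strand, were deposited as 1 table a genotype in which the authors had merged the 3 libraries, so the spread between libraries cannot be seen. The deposited fraction of methylated reads per CpG equals the ratio of these counts within rounding, and levels were computed from the counts. WT values run as far as position 140865857 of chromosome 4, and comparisons with WT stop there. No value was normalised for depth, and bisulfite reads do not part 5-methylcytosine from 5-hydroxymethylcytosine.

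The longest spliced protein-coding isoform of each gene came from GENCODE on mm9, and 209 exons with the coordinates of an exon of another gene were left out. A flank stopped at the next exon. CpGs needed 5 reads in every genotype. Calls were by size: 10 points for exon against flank and for a shift of that difference, and 20 points for a KO against WT. All 150-bp windows with the same minimums of CpGs, set against the 500 bp on each side, gave the background. Named exons were the 5 at each end of a ranking among exons with at least 8 CpGs in exon and in flanks, at the upper end only for exon minus flank in *Dnmt3a* KO. Named genes were the 10 with most exons, 6 of DNA methylation, and up to 3 of each list. Of these, 1 exon is not reported here. Other exons and genes named, such as single *Ttn* exons and genes ranked by their mean, were chosen after their values were seen. Printed sequences were read from the mm9 genome, for the highest ranked coding exon of 80 to 240 bp in a ranking, chromosome 18 left out. The exons, lists and tests were chosen with earlier results of these data known. Of 12 lists as first written, that for dynein heavy chains matched 0 exons by its spelling, and the list given was written after the data were seen. The computations were tested on simulated data and used Python 3.11.15, NumPy 2.4.6, pandas 2.3.3 and SciPy 1.17.1. Alternatives were other minimums of reads and CpGs, other flanks, strands, depths and subsets of exons, and Fisher's exact test on summed reads.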

Additional observations from a re-analysis of the deposited data

How the results depend on the processing

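Under 19 alternatives, 322 values of the exon shares and medians were recomputed. Of the percents, 208 stayed within 1.5 times of the value reported and 6 did not, and of the medians 105 kept their direction while 3 reversed. The medians include exon levels, which cannot be negative, so only those of exon minus flank could reverse. The share of exons more than 20 points below WT ran from 71.8% to 80.6% without *Dnmt3a* and from 11.03% to 17.3% without *Dnmt3b*, and the median exon level from 89.6% to 94.6% in WT, from 39.5% to 60.4% without *Dnmt3a* and from 75.7% to 88.2% without *Dnmt3b*. With at least 10 CpGs in exon and in flanks (n = 3590) the median of exon minus flank turned to -0.342 points in WT, -0.947 in the *Dnmt3a* KO and -1.34 in the *Dnmt3b* KO. The share of exons more than 10 points above their flanks was then 15.5% without *Dnmt3a* and 10.1% without *Dnmt3b*, the share below was 16.4% in WT and 22.95% without *Dnmt3b*, and the difference was higher than in WT for 7.44% of exons without *Dnmt3b*. Windows were not counted at this minimum, and the cause was not tested. With Fisher's exact test on summed reads added to the size of the call, 13.5% of exons lay below their flanks without *Dnmt3a*. That test takes reads of 1 pooled library set as independent. Leaving out CpGs read on 1 strand, and leaving out *Sfi1* and *Gm10800*, were chosen after seeing the data. No paired analysis was possible because each table merges 3 libraries, and for the same reason no replicate could be left out. Depth limits single exons, whose median counting error of exon minus flank exceeds the median difference in every genotype.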
